A study of Mus musculus with 6 samples.

Results

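Transcripts of 10 genes of the IL-6 family, TNF and IL-10 were followed in femoral bone marrow of mice with and without an intact P2rx7 gene. The genes were chosen by symbol, and all 10 of 10 were found among the 55291 genes of the deposited table. They comprise the ligands Il6, Il11, Lif, Osm, Tnf and Il10 and the receptor genes Il6ra, Il6st, Tnfrsf1a and Tnfrsf1b. Marrow was flushed from femurs of mice 6 to 8 weeks old, giving 3 wild-type libraries (WT 1 to 3) and 3 libraries with P2rx7 knocked out (A to C). Values per library are listed in that order, wild types first. The labels name no strain, treatment or batch, and they do not say which exons the allele lacks or whether it was deleted in every tissue. They also do not say whether each library came from its own mouse, so p-values measure only the spread between libraries, which may be technical.

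P2rx7 encodes an ATP-gated cation channel of immune cells and bone cells, best known for triggering the release of IL-1 family cytokines from macrophages. IL-6, IL-11, LIF and OSM are helical cytokines that share the signalling receptor gp130, encoded by Il6st, and activate JAK kinases and STAT3. In bone they are known from osteoblasts, stromal cells and macrophages, and they act on both bone formation and resorption. TNF signals through TNFR1 and TNFR2 (Tnfrsf1a and Tnfrsf1b) to NF-kB and cell death pathways, and IL-10 is a STAT3-activating cytokine that restrains macrophages.

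Libraries held 18716704 to 23575652 counts. As a check of the labels, P2rx7 itself gave 1207, 1410 and 1453 counts in wild types against 876, 722 and 748 in knockouts. Every knockout library had less of it, and transcripts were still present (edgeR log2 difference -0.67 with an SE of 0.05, adjusted p = 0.0109). Its adjusted p was 0.0763 without knockout B, 0.0973 without C and 0.516 without both, at log2 differences of -0.67, -0.65 and -0.64. Markers of the labelled tissue were unevenly present. The haemoglobin genes Hba-a1 and Hbb-bs had at most 2 and 5 counts in any library, and the erythroid genes Alas2 and Klf1 at most 4 and 7. The 9 neutrophil markers summed to 316, 153 and 345 CPM (counts scaled to library size) in wild types against 69.7, 246 and 251 in knockouts. Knockout A thus had the lowest neutrophil sum. Markers of monocytes and macrophages summed to 8570 to 10020 CPM and those of marrow stroma to 11874 to 14080 CPM. The haemoglobin and erythroid genes named here were therefore almost absent from these libraries, while macrophage and stromal transcripts were abundant. The pituitary gene Gh was counted 54, 82 and 75 times in wild types and 23 times in knockout A, but 0 times in B and C. The liver gene Alb was counted 46 and 36 times in B and C and 0 times elsewhere. These traces set B and C apart from the other 4 libraries. Values without them are given for P2rx7, Lif, Il6, Il6ra, Il6st, Tnfrsf1b and Il10, but not for the pathway and marker genes. For Il11, Osm, Tnf and Tnfrsf1a the log2 differences without B and C were -0.13, -0.15, 0.11 and 0.02 (edgeR).

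The promoter stretches of 3 genes are shown because they set the least abundant cytokine of the group (Il6) beside the abundant one (Tnf) and beside the shared receptor (Il6st). RefSeq (GRCm38.p6) held 9 promoter windows for 8 of the 10 genes, all but Osm and Il10. Each line gives the 250 bases before the transcription start, 5′ to 3′ on the gene's strand. Capitals mark matches on either strand to the NF-kB consensus, the STAT spacing motif TTCNNNGAA, the AP-1 motif TGANTCA or the cAMP response element TGACGTCA. No matches to different motifs overlapped.
Il6, plus strand, chr5:30012864-30013113: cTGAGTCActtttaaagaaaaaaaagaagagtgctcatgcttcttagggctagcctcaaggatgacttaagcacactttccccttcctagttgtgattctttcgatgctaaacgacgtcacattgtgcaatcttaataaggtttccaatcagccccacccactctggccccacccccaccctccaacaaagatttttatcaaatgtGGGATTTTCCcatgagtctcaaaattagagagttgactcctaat
Tnf, minus strand, chr17:35202008-35202257: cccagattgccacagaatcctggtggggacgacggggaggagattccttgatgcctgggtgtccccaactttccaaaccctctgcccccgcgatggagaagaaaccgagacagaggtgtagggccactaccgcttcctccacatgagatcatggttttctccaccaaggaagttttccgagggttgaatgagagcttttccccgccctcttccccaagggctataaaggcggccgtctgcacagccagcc
Il6st, plus strand, chr13:112463820-112464069: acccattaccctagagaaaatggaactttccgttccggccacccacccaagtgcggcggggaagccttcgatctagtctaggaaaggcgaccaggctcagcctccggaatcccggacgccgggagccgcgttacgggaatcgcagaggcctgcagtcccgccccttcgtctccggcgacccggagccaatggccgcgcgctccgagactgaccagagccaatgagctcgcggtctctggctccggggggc
In the Il6 window a match to the NF-kB consensus began 44 bases before the start and an AP-1 match began 249 bases before it, while the Tnf and Il6st windows held none of the 4 motifs. Of 32851 promoter windows of this length, 3.9% held the NF-kB consensus, 6.75% the AP-1 motif, 7.02% the STAT motif and 1.55% the cAMP response element. Among the other windows, that of Lif held 1 AP-1 match and those of Tnfrsf1a and Tnfrsf1b 1 STAT match each. The Il11 window at chr7:4778142-4778391 held 1 AP-1 match, and its other window, at chr7:4782858-4783107, held 0 matches.

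The TNF receptors were the most abundant of the 10 genes, and Il6 and Il11 were the least abundant. On the FPKM scale, which corrects for library size and gene length, the mean over the 6 libraries was 113 for Tnfrsf1a, 58.4 for Tnfrsf1b, 26.4 for Il6st, 11 for Il6ra and 9.26 for Tnf. It was 3.40 for Il10, 3.37 for Osm, 3.16 for Lif, 0.226 for Il11 and 0.197 for Il6. Receptor transcripts thus stood above every ligand except that Tnf overlapped its neighbour Il6ra among the knockouts. Il10 lay wholly above Osm in knockouts but wholly below it in wild types, at 1.78 to 2.85 FPKM against 3.23 to 4.06. Osm and Lif overlapped in wild types, and Il11 and Il6 overlapped in both genotypes. The mean FPKM of Tnfrsf1a exceeded that of 98.0% of the 15478 tested genes, and that of Il6 exceeded 3.84% of them.

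**Figure D1:**
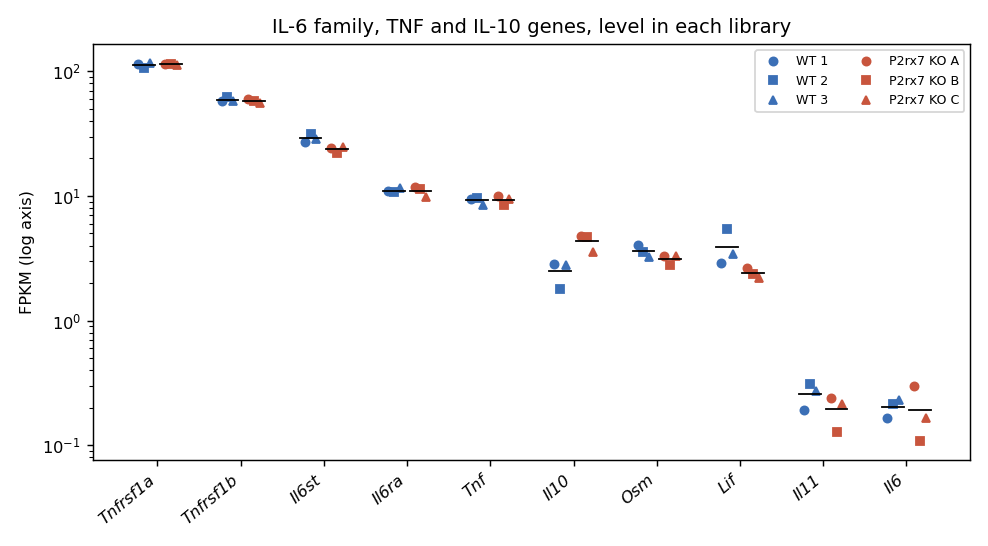
FPKM of each of the 10 genes (log axis) in WT 1, 2 and 3 (blue) and P2rx7 knockouts A, B and C (red), ordered by mean level, with a black line at each genotype mean. The TNF receptors lie at 55.3 FPKM or above in all libraries and Il6 and Il11 at 0.311 or below, and the genotypes of Il10, Lif and Il6st do not overlap.

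None of the 10 genes passed the threshold between genotypes, an adjusted p below 0.05 in edgeR's quasi-likelihood test over 15478 genes. At an unadjusted p below 0.05 there were 3, namely Il10, Lif and Il6st. The same 3 genes were the ones whose libraries did not overlap between genotypes. Over all tested genes, 0.103% passed the adjusted threshold (0.0581% higher and 0.0452% lower in knockouts), 16.6% had an unadjusted p below 0.05 and 21.9% did not overlap, so 3 of 10 is near the background. The 10 genes had a median log2 fold change of -0.05 with 3 positive values, beside a median of 0.00 and 7924 positive values over all tested genes. DESeq2, an alternative count test, called 2 of the 10, Il6st and Lif, against 2.65% of all genes it tested (1.31% higher, 1.34% lower). A fit with every gene that had a count called 3 of the 10 against 3.2% of its genes. Fits without WT 2 and without WT 3 called 0 of the 9 with a value, with 3 at an unadjusted p below 0.05 in each, against 0.288% and 1.1% of all genes. Limma on log2(FPKM + 1) called 0 of the 10, with 3 at an unadjusted p below 0.05. All 10 genes passed the filter on low counts, Il6 and Il11 with only 62 and 61 counts over all libraries.

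**Figure D2:**
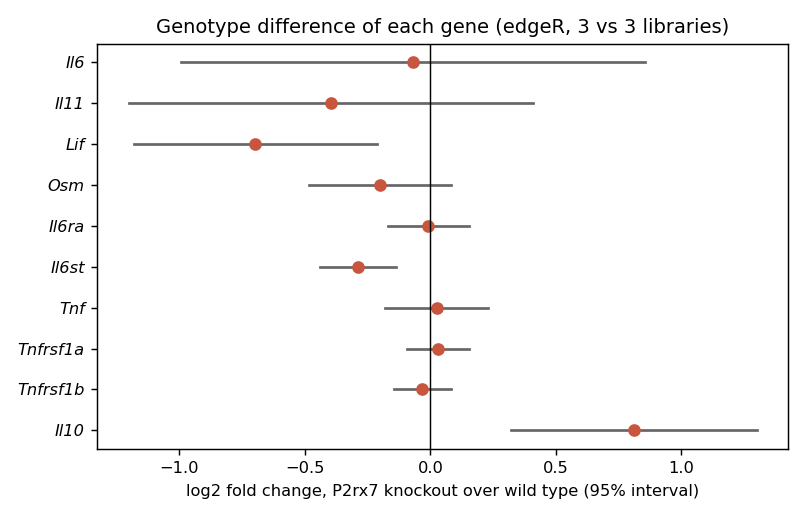
Log2 fold change of knockout over wild type (point) with its 95% interval (line) from the edgeR fit of 3 against 3 libraries. The intervals of Il10, Lif and Il6st exclude 0 before adjustment, and those of Il6 and Il11 are the widest.

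Among the IL-6 family ligands, Lif differed most between genotypes. LIF keeps embryonic stem cells undifferentiated and acts on osteoblasts and osteoclasts. Lif occupies chr11:4257557-4272514, plus strand (GRCm38). Lif reached 12.8, 23.2 and 14.9 CPM in wild types against 11.5, 10.3 and 9.63 in knockouts. All knockouts lay below all wild types, WT 2 stood well above the rest, and the gap between WT 1 and knockout A was small. Over all tested genes, 10.4% lay lower in all knockouts in this way. The log2 fold change of Lif was -0.70 ± 0.21 (SE), a fold of 0.617 with a 95% interval of 0.441 to 0.862 (unadjusted p = 0.0104, adjusted p = 0.193, edgeR). The adjusted p was 0.0367 by DESeq2. Without WT 2 the log2 fold change was -0.40 (adjusted p = 0.232), and among WT 1, 2, 3 and knockout A it was -0.57 (adjusted p = 0.969, edgeR). The coefficient of variation of Lif among wild types was 32.5%, where counting error alone gives 5.12%, so the spread between libraries exceeded counting error.

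Osm is the neighbour of Lif on the same strand, at 4236420 to 4241026 on chromosome 11, with 16.5 kb and 0 annotated genes between them. It encodes oncostatin M, a product of macrophages and neutrophils that acts on stromal cells and osteoblasts. Osm reached 9.27, 8.06 and 7.33 CPM in wild types against 7.42, 6.43 and 7.52 in knockouts. The genotypes overlapped, since WT 3 lay below knockouts A and C. The log2 fold change was -0.20 ± 0.12 (SE), with a 95% interval of -0.49 to 0.08 (adjusted p = 0.444, edgeR). WT 2, the highest library for Lif, was not the highest for Osm, and the FPKM ratio of Lif to Osm was 1.51 in WT 2 and 0.669 to 1.06 in the other 5 libraries.

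Il6 and Il11 were close to the limit of detection. Interleukin-6 drives the acute phase response and osteoclast formation through stromal cells, and interleukin-11 is a stromal cytokine needed for bone formation. Il6 was counted 8, 12 and 13 times in wild types against 16, 5 and 8 in knockouts. Il11 was counted 8, 15 and 13 times against 11, 5 and 9. Both genes overlapped between genotypes, and the highest and the lowest Il6 library were both knockouts. The log2 fold change of Il6 was -0.07 with a 95% interval of -0.99 to 0.85, and that of Il11 was -0.40 with an interval of -1.20 to 0.41 (adjusted p = 0.951 and 0.604, edgeR). Counting error alone gives a coefficient of variation of 30.2% to 32.2% for Il6 and 28.9% to 34.6% for Il11. The interval of Il6 leaves room for a 1.81-fold rise or a fall to 0.503 of the wild-type level, so differences within that range were not excluded. The coefficient of variation of Il6 was 16.7% among wild types and 50.4% among knockouts. Without knockout A the log2 fold change of Il6 was -0.56, and among WT 1, 2, 3 and knockout A it was 0.53.

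Il6st, the signalling receptor shared by the family and the gene of the third promoter printed above, was lower in every knockout library than in any wild type. It reached 304, 347 and 316 CPM in wild types against 270, 249 and 274 in knockouts. WT 2 was again the highest library and knockout B the lowest. The log2 fold change of Il6st was -0.29 ± 0.07 (SE), a fold of 0.819 with a 95% interval of 0.738 to 0.909. It did not pass over all genes (unadjusted p = 0.00227, adjusted p = 0.151, edgeR), while its adjusted p was 0.00769 by DESeq2. Without knockouts B and C the value was -0.26 (adjusted p = 0.969), and with a single library left out at a time it was -0.33 to -0.23. Il6st lies at 112464070 to 112510086 on the plus strand of chromosome 13. Its deposited exons cover 11099 bases, and GENCODE M21 lists 10 transcripts for it. Soluble and membrane forms of gp130 were not separated by counts per gene.

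Il6ra, which encodes the receptor chain that binds IL-6 itself, did not differ between genotypes beyond the spread of the libraries. It reached 94.8, 91.7 and 99.3 CPM in wild types against 101, 98.5 and 85.2 in knockouts. The knockouts spanned the whole wild-type range. The log2 fold change was -0.01 with a 95% interval of -0.17 to 0.15, which leaves room for a fold between 0.890 and 1.11 (adjusted p = 0.968, edgeR). The FPKM ratio of Il6st to Il6ra was 2.64 ± 0.265 in wild types and 2.19 ± 0.281 in knockouts (SD, n = 3), and it overlapped between genotypes. A predicted gene on the other strand covers 242 exon bases of Il6ra, whose highest count was 4, where the lowest of Il6ra was 1698.

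Differences of Tnf and its receptors also lay within the spread of the libraries. Tnf, the macrophage cytokine that gave the family its name, reached 15.7, 15.7 and 13.8 CPM in wild types against 16.3, 14.03 and 15.7 in knockouts. Its log2 fold change was 0.03 with a 95% interval of -0.18 to 0.23 (adjusted p = 0.916, edgeR), so the data leave room for a fold between 0.883 and 1.17. The spread among wild types, 7.06%, was close to the 5.48% that counting error alone gives.

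Tnfrsf1a, the receptor with a death domain that most cells carry, reached 299, 273 and 302 CPM in wild types against 297, 302 and 293 in knockouts. Tnfrsf1b, the receptor of immune and endothelial cells, reached 221, 234 and 222 CPM against 227, 223 and 213. For both receptors the genotypes overlapped, with coefficients of variation of 1.52% to 5.54%. The log2 fold changes were 0.03 (95% interval -0.09 to 0.15) for Tnfrsf1a and -0.03 (-0.14 to 0.08) for Tnfrsf1b, at adjusted p-values of 0.827 and 0.789 (edgeR). A change of either receptor by more than 1.11-fold upwards, or to below 0.905 of the wild-type level, lies outside these intervals. Per length, Tnfrsf1a stood above Tnfrsf1b by a ratio of 1.91 ± 0.165 in wild types and 1.99 ± 0.0539 in knockouts (SD, n = 3).

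Il10 had the largest difference of the 10 genes, and it was the only one of the 3 that lay higher in knockouts. IL-10 is made by macrophages and lymphocytes and limits the production of TNF and IL-6. Il10 occupies chr1:131019845-131024974, plus strand. Il10 was counted 75, 54 and 85 times in wild types against 138, 116 and 93 in knockouts, which is 3.76, 2.31 and 3.67 CPM against 6.21, 6.16 and 4.67 CPM. All knockouts lay above all wild types, with WT 2 the lowest library and knockout C the nearest to the wild types. Over all tested genes, 11.5% lay higher in all knockouts.

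The log2 fold change of Il10 was 0.81 ± 0.21 (SE), a fold of 1.75 with a 95% interval of 1.248 to 2.46. It did not pass over all genes (unadjusted p = 0.0051, adjusted p = 0.163, edgeR), nor by DESeq2 (adjusted p = 0.0593). Without WT 2 it was 0.61 (adjusted p = 0.238), and among WT 1, 2, 3 and knockout A it was 0.93 (adjusted p = 0.969, edgeR). The FPKM ratio of Il10 to Tnf was 0.2998, 0.185 and 0.331 in wild types against 0.477, 0.550 and 0.373 in knockouts. The ratio did not overlap between genotypes. It was not tested, and it uses the same Il10 values.

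**Figure D3:**
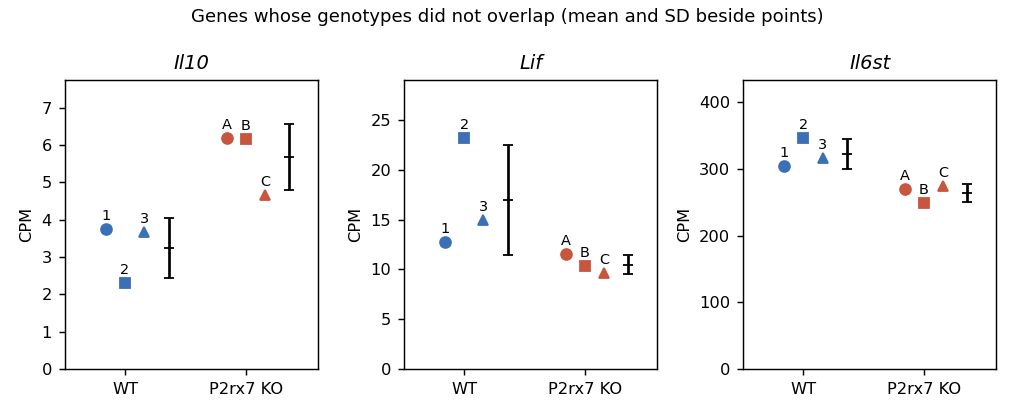
CPM of Il10, Lif and Il6st in each library, labelled by replicate, with the genotype mean and SD (n = 3) beside the points. Il10 lies at 4.67 to 6.21 CPM in knockouts and 2.31 to 3.76 in wild types, while Lif and Il6st lie lower in knockouts, and WT 2 is the extreme wild type in all 3 genes.

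In bulk marrow, fewer cells of a type and less RNA per cell cannot be told apart. Of the 10 markers of monocytes and macrophages, known producers of IL-10, 3 lay higher in all knockouts (Mrc1, Cd68 and Fcgr1) and 0 lower. By that measure 11.5% of all tested genes lay higher and 10.4% lower. The macrophage sums overlapped, at 9130 to 10020 CPM in knockouts and 8570 to 9168 CPM in wild types. Of the 9 neutrophil markers, 0 lay higher in all knockouts and 1 lower (Mmp8), and their sums overlapped too. Of the 6 stromal markers, 4 lay higher in all knockouts (Cxcl12, Lepr, Kitl and Adipoq) and 1 lower (Col1a1), where 11.5% of all tested genes lay higher and 10.4% lower in this way, and their sum, mostly Col1a1, overlapped at 13134 to 13976 CPM against 11874 to 14080 CPM. WT 2, the extreme wild type for Il10, Lif and Il6st, also stood apart in these markers, with Cxcl12 at 1327 CPM and Adipoq at 11.7 CPM, where WT 1 and WT 3 had 2696 and 3168 CPM of Cxcl12 and 44.1 and 50.4 CPM of Adipoq. Among genes of B cells, Ebf1 lay higher in all knockouts, at 177, 164 and 166 CPM against 158, 114 and 157 in wild types, while Ms4a1 and Pax5 had at most 3 counts in any library. The 7 T and NK cell markers summed to at most 12.7 CPM in any library, and Cd3e had 0 counts in all of them, but members of that list differed in opposite directions. The NK cell gene Klrb1c was counted 0, 5 and 7 times in wild types against 11, 29 and 18 in knockouts (adjusted p = 0.188 by edgeR and 0.0708 by DESeq2). Nkg7, of NK and cytotoxic T cells, was counted 7, 4 and 18 times against 13, 59 and 43 (adjusted p = 0.204 by edgeR and 0.0435 by DESeq2). The Nkg7 count of knockout A lay within the wild-type range, so the difference came from B and C. Trac, of T cells, was counted 16, 40 and 19 times against 16, 5 and 14, and Cd4 130, 239 and 249 times against 127, 127 and 146 (adjusted p = 0.322 and 0.273, edgeR). The part of these cell types in the values of Il10, Lif and Il6st was not tested.

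Further ligands and receptors of the IL-6 family also missed the threshold. Of 8 further ligands 5 were tested and 0 passed, with 1 higher and 1 lower at an unadjusted p below 0.05. By that measure 8.35% of all tested genes were higher and 8.22% lower, which is the background for each list below. Ebi3, a subunit of IL-27, was at 24.3 ± 2.59 FPKM in knockouts against 20.6 ± 1.36 in wild types, and the cytokine gene Clcf1 at 3.61 ± 0.294 against 4.67 ± 0.862 (SD, n = 3). Of 6 further receptor genes 5 were tested and 0 passed, with 2 higher and 1 lower at an unadjusted p below 0.05. The receptor chains that pair with gp130 had differences of opposite sign, none past the threshold. Lifr, which binds LIF, was at 16.8 ± 1.94 FPKM in knockouts against 12.97 ± 2.83 in wild types, with overlap (log2 fold change 0.38 ± 0.16 SE, adjusted p = 0.279, edgeR). Osmr, which binds OSM, was at 6.58 ± 0.486 FPKM in knockouts against 7.44 ± 0.374 in wild types, without overlap (-0.17 ± 0.07, adjusted p = 0.256). Il11ra1, which binds IL-11, was at 3.96 ± 0.229 and 3.41 ± 0.531 FPKM.

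The signal chain below gp130 was also without a called gene. All 14 genes of the JAK-STAT3 list were tested and 0 passed, with a median log2 fold change of 0.06. At an unadjusted p below 0.05, 3 were higher and 0 lower, where 8.35% and 8.22% of all tested genes were. Jak1 was at 54.8 ± 3.54 FPKM in knockouts against 53.9 ± 3.14 in wild types, and Stat3 at 23.2 ± 0.810 and 23.9 ± 0.464 FPKM. Socs3, the feedback inhibitor that STAT3 induces and that binds gp130, was at 28.1 ± 2.48 FPKM in knockouts against 27.3 ± 4.41 in wild types (log2 fold change 0.05, adjusted p = 0.877, edgeR). Socs2, chosen after its values were seen, was at 1.96 FPKM in knockouts and 1.43 in wild types, and its log2 fold change of 0.46 had an adjusted p of 0.101 by edgeR and 0.0204 by DESeq2. Socs2 is an inhibitor of growth hormone signalling.

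Of the 14 STAT3 target genes, all were tested and 0 passed (median log2 fold change 0.06). At an unadjusted p below 0.05, 3 were higher and 0 lower, where 8.35% and 8.22% of all tested genes were. Hp, the haemoglobin-binding acute phase protein haptoglobin, was at 352 ± 48.4 FPKM in knockouts against 187 ± 77.6 in wild types (log2 fold change 0.92 ± 0.30 SE, adjusted p = 0.208, edgeR), and its genotypes did not overlap. WT 2 was again the extreme wild type, with 156 CPM of Hp where WT 1 and WT 3 had 390 and 354 CPM and knockouts 479 to 628 CPM. Mcl1, which protects myeloid cells from apoptosis, was at 121 ± 2.73 and 118 ± 2.59 FPKM, and Junb, an AP-1 subunit, at 97.4 ± 4.46 and 104 ± 9.19 FPKM. Fgl2 and Lrg1, chosen after their values were seen, had log2 fold changes of 0.58 and 1.07 at adjusted p-values of 0.159 and 0.246 by edgeR and 0.0101 and 0.0851 by DESeq2. Lrg1 overlapped, at 3.51, 1.84 and 6.38 CPM in wild types against 6.07, 10.9 and 7.78 in knockouts, with knockout A below WT 3. Fgl2 encodes a fibrinogen-like protein of macrophages and T cells.

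Below the TNF receptors, the 18 genes of the signal chain were all tested and 0 passed, with a median log2 fold change of 0.01. At an unadjusted p below 0.05, 2 were higher and 0 lower, where 8.35% and 8.22% of all tested genes were. The NF-kB subunit Rela was at 42.7 ± 0.371 FPKM in knockouts against 44.2 ± 2.49 in wild types, the adaptor Tab2 at 48.2 ± 1.91 and 52.0 ± 1.78 FPKM, and the initiator caspase Casp8 at 25.1 ± 1.12 and 25.3 ± 0.970 FPKM. Of 15 NF-kB feedback and target genes 14 were tested and 0 passed, with 1 higher and 0 lower at an unadjusted p below 0.05 (median 0.02). Nfkbia, the inhibitor that NF-kB induces, was at 38.4 ± 3.09 and 36.9 ± 2.55 FPKM. Zfp36, which binds AU-rich elements and destabilises Tnf mRNA, was at 62.3 ± 1.97 and 64.6 ± 7.65 FPKM, and the chemokine Ccl2 at 38.6 ± 6.73 and 45.9 ± 8.08 FPKM.

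Genes that shed TNF and its receptors from the cell surface had 5 of 5 tested and 0 past the threshold, with 0 higher and 1 lower at an unadjusted p below 0.05. The shares of all tested genes by that measure were 8.35% higher and 8.22% lower. Adam17, the protease that releases TNF and cleaves IL-6 and TNF receptors, was at 21.0 ± 0.288 FPKM in knockouts against 20.3 ± 0.200 in wild types. Adam10, a related protease, was at 35.8 ± 1.23 and 37.9 ± 1.32 FPKM. Timp3, the matrix-bound inhibitor of ADAM17, was at 31.9 ± 9.34 FPKM in knockouts against 52.2 ± 18.99 in wild types and overlapped (log2 fold change -0.70 ± 0.27 SE, adjusted p = 0.255, edgeR). Knockout A, at 344 CPM of Timp3, lay within the wild-type range of 302 to 594 CPM, while B and C had 239 and 200 CPM. The receptors of IL-10 did not differ beyond the spread of the libraries. Il10ra was at 27.1 ± 1.66 FPKM in knockouts against 27.1 ± 0.787 in wild types, and Il10rb at 44.2 ± 1.61 and 42.5 ± 1.35 FPKM, with adjusted p-values of 0.967 and 0.554 (edgeR). Of the IL-10 family ligands Il19, Il20, Il22 and Il24 none passed the filter on low counts, and neither did Lta or Ltb, the lymphotoxin genes beside Tnf.

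Over all lists, 77 of 88 genes were tested and 0 passed in edgeR, with 12 higher and 3 lower at an unadjusted p below 0.05, where 8.35% of all tested genes were higher and 8.22% lower by that measure. DESeq2 called 2 of them, Fgl2 and Socs2, a share near the 2.65% of all genes it called, and limma on log2(FPKM + 1) called 0. The median log2 fold change of the 77 genes was 0.04, beside 0.00 over all tested genes.

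**Figure D4:**
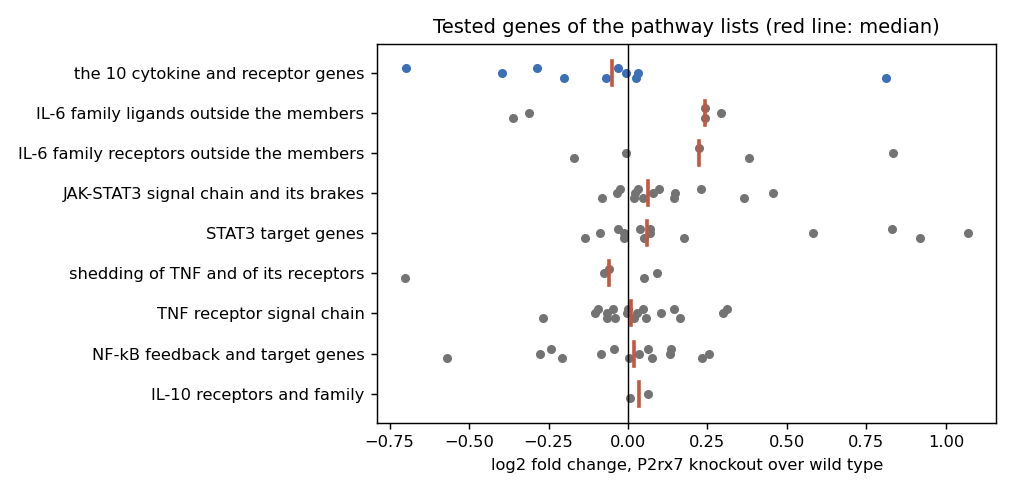
Log2 fold change of knockout over wild type (x axis) for each tested gene of the pathway lists (grey points, 1 row per list) and for the 10 cytokine and receptor genes (blue), with the median as a red line. Most genes of the TNF receptor chain and the JAK-STAT3 list lie near 0, and no gene passed the adjusted threshold.

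As a description over the 6 libraries, the genes most like 4 of the cytokine and receptor genes were found by Pearson's r of log2 CPM among 13140 named genes. For Il6st these were Polq (r = 0.999), Pdpn (0.996) and Smad3 (0.996), and 523 genes reached an r above 0.9. For Osm they were Zfp335os (0.991), the neutrophil-attracting chemokine Cxcl2 (0.990) and Rpl22l1 (0.988). For Tnf they were Cab39l (0.982), Scarb2 (0.979) and Tm9sf2 (0.976), and for Il6 they were Tceal3 (0.994), Setd2 (0.993) and Chd8 (0.985). With 6 points that share library and genotype, such values arise for many genes, and those of Il6 rest on 5 to 16 counts per library.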

How the data were processed

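RNA from flushed femoral marrow was purified with a Qiagen kit and made into SMARTer mRNA libraries, per the labels' protocols. The builds GRCm38 and mm10 come from the submitters' processing notes; which aligner, counter and annotation were used, and whether strand was, is not given in the sources used here. Whole-number counts per gene symbol and FPKM values for 6 libraries were deposited by the authors, with exon positions and lengths. The deposited FPKM are counts divided by length and by a scaled library total (100% of values above 0 fit within a relative 1e-06). The spans of the 10 genes matched GENCODE M21. Their deposited exons, merged, covered as many bases as the deposited lengths, and exon lengths were not compared with GENCODE.

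Counts were analysed with edgeR 4.0.16 in R 4.3.3 (filterByExpr, TMM, glmQLFit and glmQLFTest, two-sided). Benjamini-Hochberg adjustment covered all 15478 tested genes. Standard errors and 95% intervals follow from the test statistic, and CPM use TMM-adjusted totals. DESeq2 1.42.0 and limma 3.58.1 served as alternatives, beside other scaling, filtering and libraries left out, 12 settings in all. The fits were tested on simulated data. A count of 0 allows up to 3 counts, or 0.129 to 0.159 CPM per library, for counting error only. Wild types are numbered and knockouts lettered, so no samples are paired. The genes, the pathway and marker lists and the set of WT 1, 2, 3 and knockout A were chosen with earlier results of these data known. Pathway genes were named if they passed (at most 4 per list), otherwise the 3 of highest FPKM. Genes with nearest pattern leave out predicted genes and pseudogenes. Some genes of these lists are not reported here by name.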

Additional observations from a re-analysis of the deposited data

How the results depend on the processing

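The number of genes called over the whole table was 16 and depended on the method. It was 970 with every gene that had a count, 506 by DESeq2, 10 and 2 by limma with pseudocounts of 1 and 0.1, 0 among WT 1, 2, 3 and knockout A, and 0 to 172 with a library left out. Of the pathway genes, 5 were called with every gene that had a count (Fgl2, Hp, Lrg1 and Socs2 higher, Timp3 lower) and 2 by DESeq2, against 0 in the other 10 settings and in the edgeR fit. With every gene that had a count, Il10, Lif and Il6st passed at adjusted p-values of 0.0136, 0.00878 and 0.0122, in a fit where 3.2% of all genes passed. Their directions held in all 12 settings, at log2 fold changes of 0.61 to 0.93, -0.87 to -0.40 and -0.33 to -0.23. Values near 0 changed sign. With a library left out, Il6 ranged from -0.56 to 0.19, Il6ra from -0.053 to 0.064, Tnf from -0.033 to 0.084 and Tnfrsf1a from -0.016 to 0.058. Among WT 1, 2, 3 and knockout A, Il6 was at 0.53, Il6ra at 0.076 and Tnfrsf1b at 0.0042, where knockout A stands alone and is assumed to vary like the wild types. The cause of these differences was not tested, except that fits with fewer libraries have fewer residual degrees of freedom. The adjusted p of P2rx7 was 0.0763 without knockout B, 0.0973 without knockout C and 0.516 among those 4 libraries. Il11 did not pass the filter without WT 2 or WT 3. Depth limits Il6 and Il11 most.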
